A study of Mus musculus with 2 samples.

Results

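The miR-99/100 family of the mouse has 3 hairpin genes, Mir99a, Mir100 and Mir99b. They were found in the count tables of embryonic midbrain by their gene ID, and they are 3 of the 1973 loci in these tables. Midbrain, the part of the developing brain between forebrain and hindbrain, came from B6NCrl mouse embryos aged 13.5 days, with tissue pooled from male and female embryos. RNA shorter than 30 nt was sequenced as microRNA-seq in 2 biological replicates of 1 group, so the series holds no treated, mutant or older tissue to set beside them. Both samples carry the same donor record in the labels, and nothing states whether the pools shared litters, so the spread between them may be smaller than that between litters. Replicate 1 held 5093743 and replicate 2 held 2935841 reads counted at a gene on its own strand.

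A microRNA is cut from a hairpin in a longer primary transcript, and 1 arm of the hairpin is loaded into an Argonaute protein, where bases 2 to 8 of the arm, the seed, pair with messenger RNAs. The miR-99/100 family is among the oldest microRNA families of animals. Its genes lie beside a let-7 gene and a miR-125 gene, an arrangement kept from insects to mammals. In human and mouse cells the family is known to repress Mtor, the kinase that couples growth to nutrients, and Igf1r, a receptor of insulin-like growth factor. The let-7 microRNAs are timing regulators that accumulate as progenitors mature, and miR-125 is the vertebrate relative of lin-4 of Caenorhabditis elegans, also a regulator of developmental timing.

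The mature sequences show what the counts could and could not tell apart. They are from RefSeq on GRCm38.p6, written 5′ to 3′, with the seed in capitals.
miR-99a-5p: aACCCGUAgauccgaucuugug
miR-100-5p: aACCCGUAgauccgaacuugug
miR-99b-5p: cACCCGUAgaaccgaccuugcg
All 3 sequences have 22 bases and the same seed, and no other of the 1679 mature mouse microRNA names in the RefSeq table has this seed. Counted from 1 at the 5′ end, miR-99a-5p and miR-100-5p differ by U16A alone, with miR-99a-5p named first. From miR-99a-5p to miR-99b-5p the differences are A1C, U11A, U16C and U21C, and from miR-100-5p to miR-99b-5p they are A1C, U11A, A16C and U21C. The first 15 bases are the same in miR-99a-5p and miR-100-5p, so a read from these arms that stops short of base 16 has the letters of both.

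The 3p arms, shown because 1 locus count holds reads of either arm, are less alike.
miR-99a-3p: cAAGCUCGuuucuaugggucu
miR-99b-3p: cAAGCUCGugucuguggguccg
miR-100-3p: aCAAGCUUgugucuauagguau
The seed of the 3p arm was the same in Mir99a and Mir99b and different in Mir100, whose annotated 3p arm held its CAAGCU 1 base further from the 5′ end. How many reads came from each arm is not given by the counts.

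Whole hairpins set the limits of each locus. Those in the RefSeq table are printed with the 5p and 3p arms in capitals.
Mir99a: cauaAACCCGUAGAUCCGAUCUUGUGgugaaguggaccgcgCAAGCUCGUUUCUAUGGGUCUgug
Mir100: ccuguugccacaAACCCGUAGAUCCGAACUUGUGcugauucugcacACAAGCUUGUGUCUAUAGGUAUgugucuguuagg
Mir99a (ENSMUSG00000065530.1) is chr16:77598936-77599000 on the plus strand of mm10, a hairpin of 65 nt. Mir100 (ENSMUSG00000093011.1) is chr9:41531425-41531504, plus strand, 80 nt, and Mir99b (ENSMUSG00000065396.1) is chr17:17830188-17830257, plus strand, 70 nt. The arms are separated by 15 nt in Mir99a, 12 nt in Mir100 and 16 nt in Mir99b. The longest exact run that a member hairpin shares with any other annotated mouse hairpin was 16 nt for Mir99a and for Mir100, each with the other, and 11 nt for Mir99b, with Mir100. None of the 6 mature arms occurs whole in a second annotated hairpin. Only annotated hairpins were searched, so matches elsewhere in the genome are not covered.

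Outside the family, the longest run of letters shared by miR-100-5p with an annotated hairpin was 11 nt, in Mir10a, a locus of the Hox clusters. This locus was chosen for its sequence and not by the rule for named loci.
miR-10a-5p: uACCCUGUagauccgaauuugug
The seeds differ, and Mir10a stood at 382 CPM in replicate 1 and 469 CPM in replicate 2, far below every member of the family.

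Each member lies in an intron on its own strand in the GENCODE annotation. Mir99a is in an intron of Mir99ahg, a long noncoding gene, in all 4 of its transcripts that span the hairpin. Mir100 is in an intron of 3110039I08Rik, which RefSeq calls Mir100hg, in all 13 spanning transcripts, and also within an intron of the lincRNA Gm49317. Mir99b is in an intron of Spaca6, a protein-coding gene named for a sperm acrosome protein, in both spanning transcripts. The hosts differ in length, with 537111 bases for Mir99ahg, 389918 for 3110039I08Rik and 15852 for Spaca6. Every ID in the tables that matched the annotation is a microRNA gene, 1894 of 1973 rows, so the level of the host transcripts was not measured.

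The order of the genes was the same in all 3 places, with the family member first, then let-7, then miR-125, all on the plus strand. The gap between the member and let-7 was 656 bases for Mir99a, 5211 bases for Mir100 and 94 bases for Mir99b. From let-7 to miR-125 the gap was 46522 bases beside Mir99a, 45114 bases beside Mir100 and 367 bases beside Mir99b. The cluster of Mir99b is thus the compact one, and the other clusters have their miR-125 gene far downstream.

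**Figure D1:**
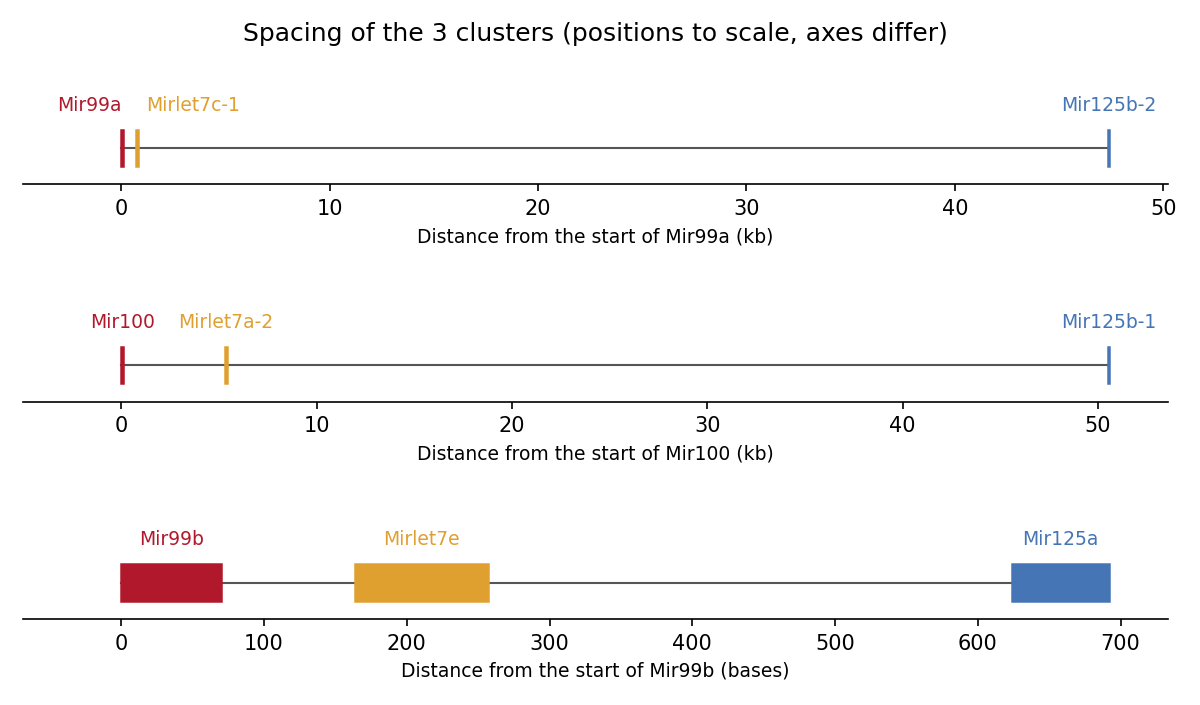
Positions of the hairpins in the 3 clusters, as the distance from the start of the family member, in kb for Mir99a and Mir100 and in bases for Mir99b; hairpins on the kb axes are outlined so that they can be seen. The let-7 gene follows the member in each, 656, 5211 and 94 bases after the end of Mir99a, Mir100 and Mir99b.

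Mir99a had the highest count of any locus in either library. It had 1046295 reads in replicate 1 and 627009 in replicate 2, which is 205408 and 213570 CPM (counts scaled to 1000000 same-strand reads per library). As a share of the library this was 20.5% in replicate 1 with bounds of 20.51 and 20.58%, and 21.4% in replicate 2 with bounds of 21.31 and 21.40%. These bounds, 95% Clopper-Pearson limits, cover counting error only, since the reads carry no molecular identifiers, and they do not overlap. Mir99a alone exceeded the 4 loci that follow it in the ranking by mean CPM, which in sum held 19.8% in replicate 1 and 19.4% in replicate 2.

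Mir100 had 257502 reads in replicate 1 and 158418 in replicate 2, or 50553 and 53960 CPM. It had rank 3 in both libraries, below Mir335 (56881 CPM in replicate 1 and 56237 CPM in replicate 2) and above Mirlet7g at a mean of 45543 CPM. The gap between the means of Mir100 and Mir335 exceeded their SDs of 2409 and 456 CPM, and Mir100 was the lower in both libraries. Mir335 lies within Mest, an imprinted gene.

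Mir99b had 150178 reads in replicate 1 and 94966 in replicate 2, or 29483 and 32347 CPM. It had rank 7 in both libraries. Its neighbours by mean were Mir130a at 34720 CPM in replicate 1 and 36716 CPM in replicate 2, and Mirlet7i at 20640 CPM in replicate 1 and 27566 CPM in replicate 2. In each library Mir99b lay below Mir130a and above Mirlet7i. The highest value of Mirlet7i, in replicate 2, came within the SD of 2025 CPM of the lowest value of Mir99b, in replicate 1.

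**Figure D2:**
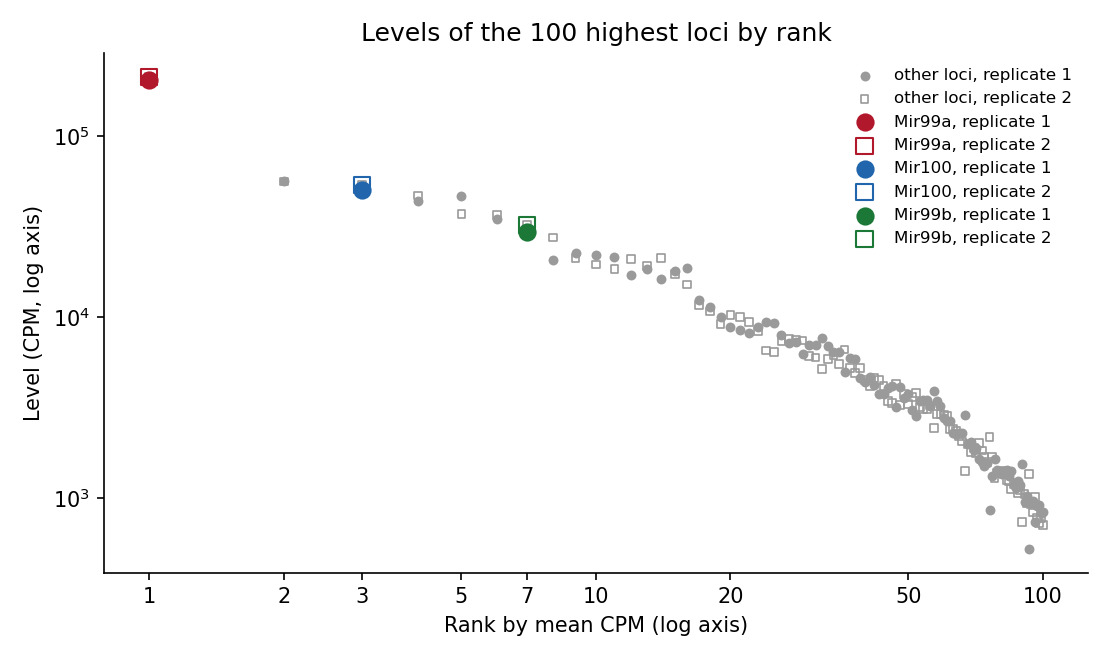
Level in CPM (log axis) of the 100 loci of highest mean against their rank by mean CPM (log axis), with filled circles for replicate 1 and open squares for replicate 2. Mir99a at rank 1 stands above the rest, whereas Mir100 at rank 3 and Mir99b at rank 7 lie among other loci of like level.

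Together the 3 members made up 28.5% of the counts in replicate 1 (28.51 to 28.58%) and 30.0% in replicate 2 (29.94 to 30.04%), or 29.3% ± 1.02 (SD, n = 2). The other 7 of the 10 highest loci held 24.8% in replicate 1 and 24.5% in replicate 2. The 9 let-7 loci with a row summed to 7.22% in replicate 1 and 8.29% in replicate 2, and the 3 loci Mir125a, Mir125b-1 and Mir125b-2 to 0.844% in replicate 1 and 0.774% in replicate 2. These shares count only reads placed at 1 locus. Reads that map to several places, which are in no locus count, were 34.4% of all reads in replicate 1 and 37.7% in replicate 2, or 2.63 and 2.94 times the counts of the family. With the multimapping reads added to the denominator, the family's share was 16.3% in replicate 1 and 15.9% in replicate 2, so which library had the larger share depends on the denominator. Mir99a is the highest locus among uniquely placed reads, and the place of the family among all microRNA reads is not settled by these tables.

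Within the family the division was close to the same in both libraries. Mir99a gave 72.0% of the family's counts in replicate 1 (71.89 to 72.03%) and 71.2% in replicate 2 (71.12 to 71.31%). Mir100 gave 17.7% in replicate 1 and 18.0% in replicate 2. Mir99b gave 10.3% in replicate 1 and 10.8% in replicate 2. The order of the members was thus Mir99a, Mir100 and Mir99b in each library.

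Ratios of members within a library do not depend on depth or scaling. A read of a mature microRNA can cover the whole molecule, and the 3 annotated 5p sequences have the same length, so counts per locus and counts per base of 5p sequence give the same ratios. The count of Mir99a was 4.06 times that of Mir100 in replicate 1 and 3.96 times in replicate 2. On the log2 scale this ratio was 2.02 (2.016 to 2.029, counting error) in replicate 1 and 1.98 (1.977 to 1.993) in replicate 2. Mir99a was 6.97 times Mir99b in replicate 1 and 6.60 times in replicate 2. Mir100 was 1.71 times Mir99b in replicate 1 and 1.67 times in replicate 2, the smallest step between members. All 3 ratios were slightly larger in replicate 1, and the gap between the libraries was small beside the ratio itself, 0.04 against 2.00 on the log2 scale for Mir99a to Mir100. With 2 libraries, the smallest two-sided p that an exact sign-flip permutation of the within-library ratios allows is 0.5, so no p-value is given for the order. Molecules of different sequence can be captured with different efficiency in small RNA libraries, and the part of that in these ratios was not tested.

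Each member was far above the neighbours of its cluster in locus counts. Mirlet7c-1, 1 of the let-7 genes, had 291 CPM in replicate 1 and 285 CPM in replicate 2, and Mir125b-2 had 1984 and 1988 CPM. The count of Mir99a was 706 times that of Mirlet7c-1 in replicate 1 and 750 times in replicate 2, and 104 and 107 times that of Mir125b-2. Mir99a thus made up 98.9% of the locus counts of its cluster in either library. The 5p arm of each of these neighbours occurs whole in another hairpin, so reads of the whole arm are in no locus count.

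In the cluster of Mir100, Mirlet7a-2 had 155 CPM in replicate 1 and 144 CPM in replicate 2, and Mir125b-1 had 2298 and 2401 CPM. The count of Mir100 was 326 and 375 times that of Mirlet7a-2, and 22.0 and 22.5 times that of Mir125b-1. The differences from these neighbours cannot be read as levels of the mature microRNAs. The 5p arm of Mir125b-1 occurs whole in Mir125b-2 and that of Mirlet7c-1 in Mirlet7c-2, so reads from these arms match more than 1 place. The hairpin of Mirlet7a-2 shares a run of 23 nt with Mirlet7a-1. In contrast to these, the members have no such copy.
miR-125b-5p: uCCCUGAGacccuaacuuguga
let-7c-5p: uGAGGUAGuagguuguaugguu
These sequences have seeds of their own, different from that of the family.

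The cluster of Mir99b is the one whose neighbours have no annotated copy.
miR-125a-5p: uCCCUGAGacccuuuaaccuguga
let-7e-5p: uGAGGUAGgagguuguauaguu
Neither sequence occurs whole in another annotated hairpin. Mir125a had 21159 reads in replicate 1 and 9852 in replicate 2, or 4154 and 3356 CPM. The count of Mir99b was 7.10 times that of Mir125a in replicate 1 and 9.64 times in replicate 2. Here the libraries differed beyond counting error, with a log2 ratio of 2.83 (2.81 to 2.85) in replicate 1 and 3.27 (3.24 to 3.30) in replicate 2.

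Mirlet7e has no row of its own in the tables. Its place is covered by Gm25927, a microRNA gene annotated on the other strand at chr17:17830343-17830459, which had 0 reads on its own strand in both libraries. On the opposite strand, that of Mirlet7e, this row had 25715 reads in replicate 1 and 14571 in replicate 2, equal to 5048 and 4963 CPM of the same-strand total. These were the second highest opposite-strand counts of all rows in either library. Set against them, the count of Mir99b was 5.84 times as high in replicate 1 and 6.52 times in replicate 2. In all 3 clusters the family member was thus the highest locus by reads placed at 1 locus. For the clusters of Mir99a and Mir100 this cannot be read as mature levels, since reads from copied arms of their neighbours are in no locus count. Mir99b made up 76.2% of its cluster in replicate 1 and 79.5% in replicate 2 with these reads included.

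**Figure D3:**
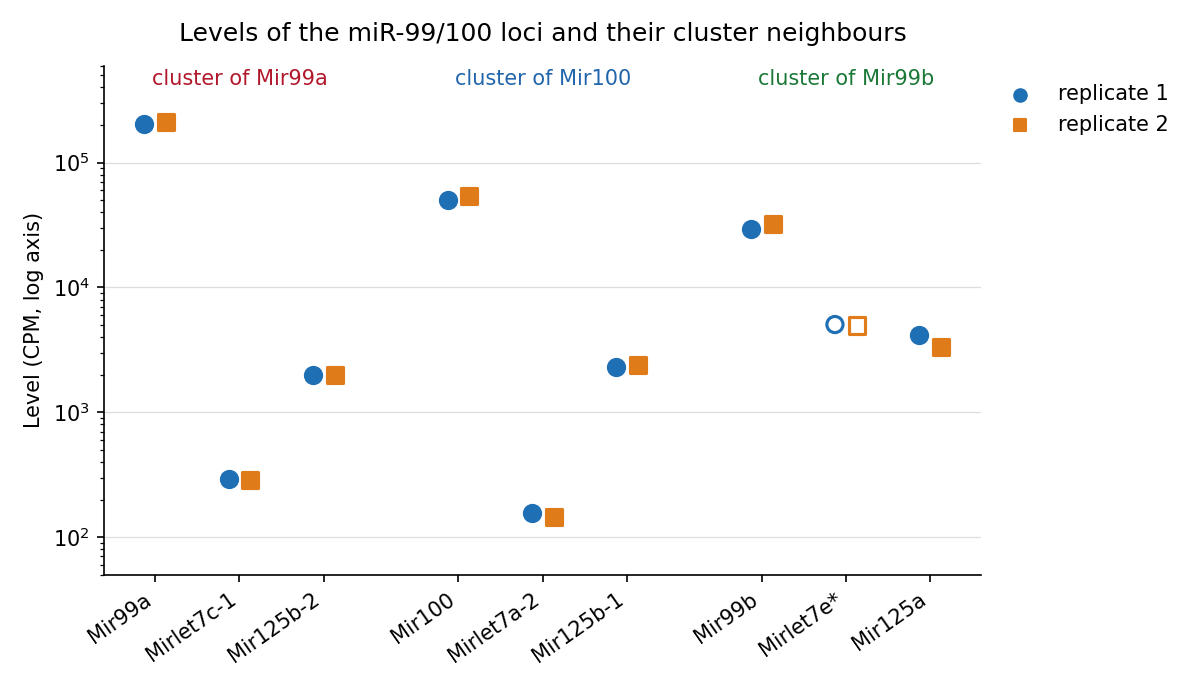
Level in CPM (log axis) of each family member and of the let-7 and miR-125 loci of its cluster, with circles for replicate 1 and squares for replicate 2. Open symbols, at Mirlet7e*, are the opposite-strand reads of Gm25927 at the place of Mirlet7e. Each member, from 29483 CPM for Mir99b in replicate 1 upwards, lies above its neighbours. Reads that map to several places, as from copied arms of neighbours of Mir99a and Mir100, are not counted.

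The libraries were compared for all 466 loci with at least 10 reads over both, with a binomial test that was exact and two-sided, conditional on the sum of both counts, at library sizes scaled by TMM (trimmed mean of M values), with Benjamini-Hochberg adjustment at 0.05. The test compares 2 libraries, not conditions, and takes in no spread between animals. It called 38% of the loci, of which 87 stood higher in replicate 1 (18.7% of all tested) and 90 in replicate 2 (19.3%). With total counts in place of TMM the split was 112 and 69, and with multimapping reads added to those totals 155 and 39.

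At this scaling all 3 members were called, each higher in replicate 2, but for Mir99a and Mir100 the direction turned when multimapping reads were counted in the library sizes. Mir99a had 200708 TMM-scaled CPM in replicate 1 and 218572 in replicate 2, a log2 ratio of replicate 1 to replicate 2 of -0.12 (counting interval -0.128 to -0.118). Mir100 had a log2 ratio of -0.16 (-0.170 to -0.152; adjusted p = 3.2e-263, exact binomial). Mir99b had a log2 ratio of -0.20 (-0.212 to -0.189; adjusted p = 2.98e-242, exact binomial). The p-values rest on very many reads, and the differences themselves were small, 1.09-fold, 1.12-fold and 1.15-fold higher in replicate 2. With total counts in place of TMM the log2 ratios were -0.06 for Mir99a, -0.09 for Mir100 and -0.13 for Mir99b, smaller and of the same sign. Library sizes that include the multimapping reads were total counts plus those reads, without TMM. Against the TMM values they moved every locus by 0.17 on the log2 scale towards replicate 1. Part of this came from leaving out TMM, whose own shift against total counts was -0.07. The log2 ratio was then 0.05 for Mir99a, called higher in replicate 1, 0.01 for Mir100, which was not called (adjusted p = 0.0681, exact binomial), and -0.03 for Mir99b, called higher in replicate 2. The direction of Mir99a and Mir100 between the libraries is thus set by the choice of library size, while their ratios within a library are not touched by it.

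A call in either direction was common among loci of this depth. Of the 18 loci with a mean of at least 10000 CPM, 5 were called with more in replicate 1, 11 with more in replicate 2, and 2 were not called. With the multimapping reads in the library sizes and without TMM, these numbers were 12 with more in replicate 1 and 4 with more in replicate 2. Ordered by the size of their log2 ratio from the smallest, Mir99a was 8th, Mir100 11th and Mir99b 13th of these 18, whose ratios ran from 0.02 to 0.48 in size with a median of 0.15. None of the members reached a log2 difference of 0.32. Calls past that size made up 16.1% of all tested loci, 7.51% with more in replicate 1 and 8.58% with more in replicate 2. The common biological coefficient of variation over all tested loci, from an intercept-only fit of edgeR, was 0.157. Without TMM, the SD of the 2 replicates was 2.76% of the mean for Mir99a, 4.61% for Mir100 and 6.55% for Mir99b. On that same scale the median of the 18 loci was 4.83%. The coefficient of 0.157 was fitted with TMM factors, at which each member lay further apart between the libraries. For Mir99a the log2 ratio was -0.12 with TMM and -0.06 without, so these SDs cannot be set against the coefficient.

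**Figure D4:**
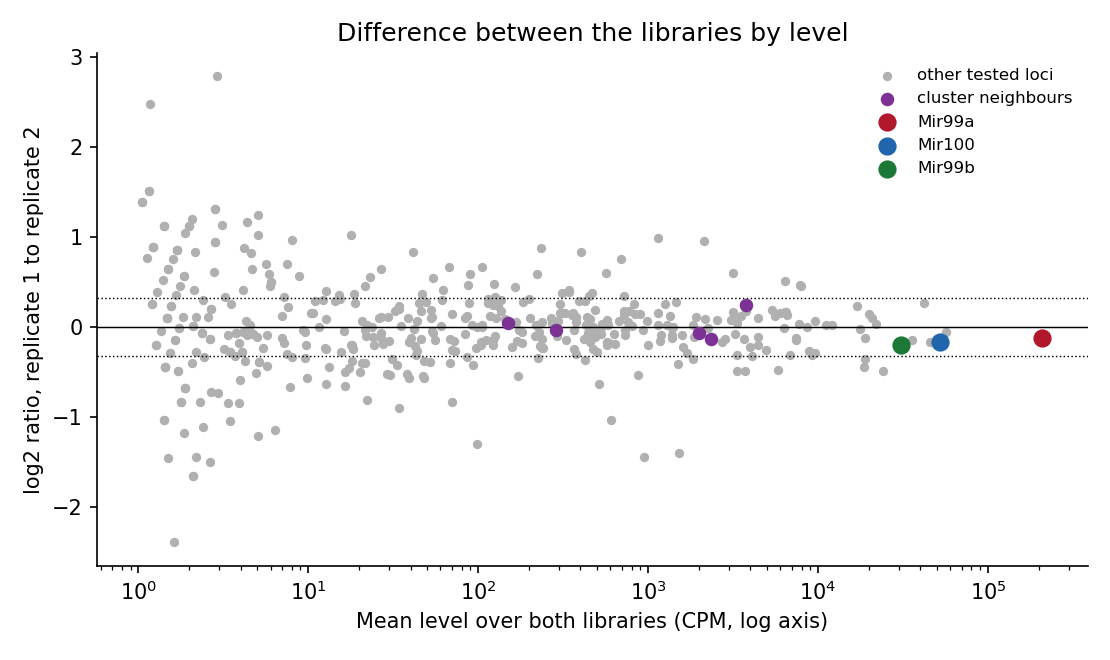
Log2 ratio of replicate 1 to replicate 2 after TMM scaling against mean level in CPM (log axis) for the 466 tested loci; the dotted lines lie 0.32 above and below 0. Mir99a, Mir100 and Mir99b lie just below 0, at -0.12, -0.16 and -0.20. With multimapping reads in the library sizes and without TMM they would lie at 0.05, 0.01 and -0.03. Mir125a is the cluster neighbour farthest from 0, at 0.24.

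At TMM scaling the neighbours did not all follow the members. Mir125b-1 (log2 ratio -0.13) and Mir125b-2 (-0.07) were higher in replicate 2 and called, with the same sign as the member of their cluster. With total counts in place of TMM, Mir125b-2 had a log2 ratio of only -0.0028, close to 0. With the multimapping reads in the library sizes and without TMM, Mir125b-1 stood at 0.04 and was not called. Mir125b-2 then stood at 0.10 and was called higher in replicate 1. At TMM scaling Mirlet7c-1 (-0.04) and Mirlet7a-2 (0.04) did not pass. With the larger library sizes Mirlet7a-2 stood at 0.21 and was called higher in replicate 1, and Mirlet7c-1 at 0.13 was not called. Mir125a was called higher in replicate 1 at TMM scaling, unlike Mir99b, although it lies 554 bases from Mir99b on the same strand. Its log2 ratio was 0.24 (0.206 to 0.276, adjusted p = 2.09e-42, exact binomial). With the larger library sizes Mir125a stood at 0.41 and was called in the same direction.

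Over 2 libraries the only likeness in pattern that can be given is a like ratio between them. Of the other loci with a mean of at least 1000 CPM, the log2 ratios nearest to -0.14, that of the 3 members summed, were those of Mir140 (-0.13), Mir1983 (-0.13) and Mir151 (-0.14). Their levels were far from that of Mir99a, at 3667 ± 120 CPM, 2824 ± 91.5 CPM and 7414 ± 281 CPM (SD, n = 2).

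The tissue label was checked on microRNAs of cell types, whose shares of the same-strand counts stand beside those of the family. A list of neural loci, all 13 of them detected in both libraries, summed to 4.99% in replicate 1 and 4.80% in replicate 2. The endothelial locus Mir126a held 1.63% and 2.12%, the 6 mural and mesenchymal loci 0.539% and 0.707%, the 5 blood loci 0.0265% and 0.0311%, and the 2 choroid plexus loci 0.0752% and 0.104%. The 4 muscle loci were near 0, with 3 of them at 0 in at least 1 library. All these shares count only reads placed at 1 locus. The neural list holds several genes that share a microRNA name, and arms shared between the listed loci were not searched. The lists can thus not be ranked by amount. The endothelial, mural, blood and choroid shares were higher in replicate 2, like the shares of the 3 members over the same denominator. Their part in the difference of the family was not tested. With multimapping reads in the denominator, Mir99a held 11.7% in replicate 1 and 11.3% in replicate 2, and Mir100 2.89% and 2.87%. Only Mir99b was then higher in replicate 2, at 1.68% and 1.72%. The shares of the lists were not taken over that denominator. In bulk tissue, more cells that make a microRNA and more of it per cell cannot be told apart.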

How the data were processed

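The samples are 2 microRNA-seq libraries of 1 group. The authors deposited a raw count of reads for each gene, on assembly mm10 with annotation M4 per their notes. Aligner, trimming and filters: not given in the sources used here. In 3946 of 3946 rows the first count column is the second plus the third, so the first was read as the unstranded count. This sum does not tell the same strand from the opposite strand, and no header names the columns. The second was taken as same-strand and the third as opposite-strand from the values. Each member had 0 reads in the third. Summary rows that name no gene, 54.3% of reads in replicate 1 and 57.2% in replicate 2, stayed out of library sizes. A floor of 3 counts is 0.589 and 1.02 CPM.

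Names and coordinates came from GENCODE M21 on the same assembly, where 1894 of 1973 IDs matched without their version. For loci whose ID version differs, no start and end are given. Gaps and positions within the clusters still used M21 places for every locus, also for Mirlet7c-1 and Mir125a, whose ID version differs. Sequences came from RefSeq, which held mature arms for all 3 members and hairpins for Mir99a and Mir100. CPM used same-strand counts over all gene rows. The exact conditional binomial test (scipy 1.17.1) used TMM factors from edgeR 4.0.16 (R 4.3.3), ratios a pseudocount of 0.5 CPM, and DESeq2 1.42.0 gave other size factors. The test was tried on simulated data. Intervals of ratios and shares are 95% exact. The named loci are the members, their cluster neighbours, the loci ranked next to each member and the 3 other loci of at least 1000 CPM whose log2 ratio between the libraries was nearest to the family's. Members, lists and rules were chosen with earlier results of these data known.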

Additional observations from a re-analysis of the deposited data

Results flagged for a closer look

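Reads on the opposite strand of Gm25927 lie outside the same-strand counts used for all levels. There were 25715 in replicate 1 and 14571 in replicate 2, against 0 on the gene's own strand in both and a floor of 3 counts. They fall on the strand of Mirlet7e, whose hairpin the row contains and which has no row in the tables. No test was run on them.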

How the results depend on the processing

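The ranks 1, 3 and 7 of Mir99a, Mir100 and Mir99b were the same in each replicate alone and with unstranded counts. The direction between the libraries was the same for all 3 members under 9 alternatives. These changed the scaling of locus counts, filter, strand, depth, required size and pseudocount. A required size leaves the ratio as it is, and a pseudocount hardly moves it at these levels, so these could not turn the direction. The direction turned for Mir99a and Mir100 when the library sizes, without TMM, took in reads outside the locus counts. With multimapping reads included, the log2 ratio was 0.048 for Mir99a and 0.010 for Mir100, and 155 loci had more in replicate 1 and 39 more in replicate 2. With all reads of the tables, the log2 ratio was 0.040 for Mir99a and 0.0021 for Mir100, and the counts of loci were 153 and 43. Mir99b stayed higher in replicate 2 in both, at -0.03 and -0.04. With multimapping reads in the denominator, the mean levels were 115368 CPM for Mir99a, 28764 CPM for Mir100 and 17009 CPM for Mir99b, and the family share was 16.1%. Without Mir99a in the denominator, Mir100 stood at 66117 CPM and Mir99b at 39118 CPM, and these 2 loci held 10.5%. Per nucleotide of hairpin, the levels were 3223 CPM for Mir99a, 653 CPM for Mir100 and 442 CPM for Mir99b. Per nucleotide of hairpin, the log2 ratios were 2.30 for Mir99a to Mir100, 2.87 for Mir99a to Mir99b, 0.57 for Mir100 to Mir99b, 10.04 for Mir99a to Mirlet7c-1, 6.85 for Mir99a to Mir125b-2, 8.71 for Mir100 to Mirlet7a-2, 4.42 for Mir100 to Mir125b-1 and 3.04 for Mir99b to the reads at Mirlet7e. When a call also needed a log2 difference of 0.32, none of the members was called, at -0.12 for Mir99a, -0.16 for Mir100 and -0.20 for Mir99b, and the calls over all loci numbered 35 with more in replicate 1 and 40 with more in replicate 2. These shifts follow from how each alternative is built. These larger library sizes, the reads at Mirlet7e and the lengths of 5p sequences were chosen after seeing the data. No paired analysis was possible because the series has 1 group, so no groups share replicate numbers; ratios between loci were taken within each library. With 2 libraries and reads of several places left out, neither the spread between litters nor the level of copied microRNAs can be had.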
